A study of Homo sapiens with 4 samples.

Results

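ENAH, CTTN and DIAPH1 encode 3 regulators of actin assembly, and every cassette exon listed for them by gene symbol is described here. They account for 11 cassette exon events, each a different exon, out of 31408 events in 9172 genes. A cassette exon is joined to both flanking exons in one messenger RNA form and skipped in the other. ENAH had 6 of the events, CTTN 3 and DIAPH1 2. The genes were chosen by their symbols with their listed inclusion differences, p-values and FDR already known, so those values are a description and were not tested again.

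The libraries came from 4 clones of HEK293T, an established human embryonic kidney line grown in culture without a further treatment. Each clone was expanded from a single sorted cell after transfection with a Cas9 plasmid and guide RNAs placed on either side of RBFOX2, also called RBM9. The labels give 2 clones the genotype WT and 2 the genotype RBFOX2 KO, so each library is 1 clone and clone and genotype effects are seen through 2 clones a group. Ribosome-depleted total RNA was made into strand-specific libraries to find exons whose splicing depends on RBFOX2. The table compares a first with a second set of libraries, and neither its header nor the labels say which set is the knockout. Differences are therefore given as first minus second set, and no direction below is a gain or loss on knockout. Inclusion levels and junction reads of each library are not given, because those columns could not be matched to clones by name. No spread between clones is given here, and the p-values and FDR are those of the authors' model. RBFOX2 itself had 0 events, so the deletion could not be checked, and the table holds no expression values with which to check the cell line.

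Actin filaments grow at a fast end, and cells steer this growth with proteins that start, lengthen, branch or cap filaments. ENAH, or Mena, belongs to the Ena/VASP family, which lengthens filaments and keeps capping protein off at the edge of lamellipodia and the tips of filopodia. DIAPH1 is a formin, a protein that is released from self-inhibition on activation and then starts and lengthens unbranched filaments. CTTN, or cortactin, binds the branch-forming Arp2/3 complex through one end and filaments through a row of tandem repeats. RBFOX proteins bind GCATG in RNA and are known to change the inclusion of nearby exons, often short and in frame. Exons of cytoskeletal genes are well-known examples, among them exon 11a of ENAH.

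The exons that carry the largest differences were in frame. Exon 2 of DIAPH1 has 27 nt, and the related formin genes DIAPH2 and DIAPH3 each have an exon 2 of 33 nt in the same place of the transcript. Their sequences are shown to compare them, 5′ to 3′ from the matched GENCODE 29 transcripts, with the longest run shared by all 3 exons in capitals.
DIAPH1 exon 2: actctgaagcggctcatggcaGATGAg
DIAPH2 exon 2: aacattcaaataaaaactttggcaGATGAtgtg
DIAPH3 exon 2: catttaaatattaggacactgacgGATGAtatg
The shared run has 5 bases. DIAPH1 and DIAPH2 share a longer run of 10 bases around it, and DIAPH2 and DIAPH3 are identical at 19 of 33 positions (57.6%).

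In CTTN, the exon with the large difference is the last of a row of exons of equal length. CTTN-201, a GENCODE 29 transcript that includes it, has 5 exons of 111 nt, of which exons 8 to 11 follow one another. Each of these 4 exons adds 37 residues, begins after the first base of a codon and lies in the part of the gene known to encode the repeats. The 4 sequences are shown because the repeats differ at one element of interest. Capitals mark GCATG, the RBFOX element, or GCACG, a related pentamer, searched on the transcribed strand only.
CTTN exon 8: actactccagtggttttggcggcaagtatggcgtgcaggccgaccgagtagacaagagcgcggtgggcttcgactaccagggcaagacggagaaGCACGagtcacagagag
CTTN exon 9: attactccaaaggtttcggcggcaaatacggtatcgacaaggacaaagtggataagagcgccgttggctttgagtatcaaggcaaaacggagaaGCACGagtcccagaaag
CTTN exon 10: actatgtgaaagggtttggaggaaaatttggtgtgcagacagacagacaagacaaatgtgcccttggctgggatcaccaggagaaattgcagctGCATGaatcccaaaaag
CTTN exon 11: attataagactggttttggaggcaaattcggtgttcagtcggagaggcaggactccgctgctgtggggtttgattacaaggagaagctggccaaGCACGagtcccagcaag
All 4 marked pentamers start at position 95 of the exon. Exon 10 is the one with GCATG there, and exons 8, 9 and 11 have GCACG. Exon 11 is identical to exon 10 at 73 of 111 positions (65.8%), to exon 8 at 71 (64%) and to exon 9 at 69 (62.2%). For scale, exon 11 matched the ENAH exon of the same length at 37 of 111 positions (33.3%). Exons 8 and 9 are the closest pair, at 75.7%.

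**Figure D1:**
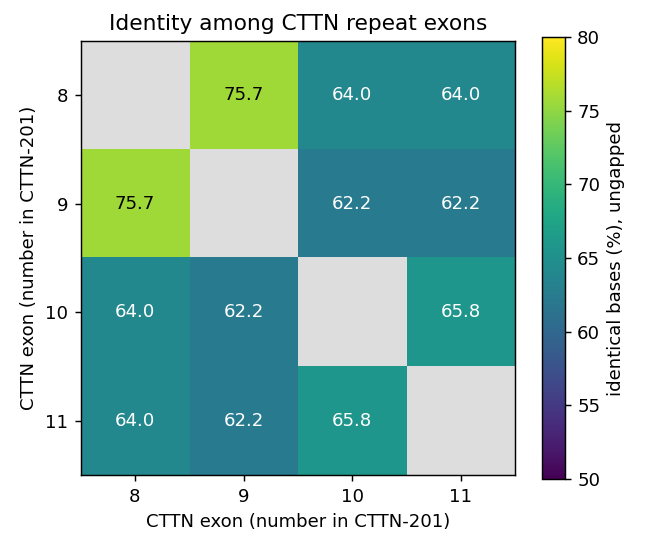
Share of identical bases (%, ungapped over 111 positions) between each pair of the neighbouring CTTN exons 8 to 11, numbered as in CTTN-201. Exons 8 and 9 reach 75.7%, and the other pairs lie between 62.2% and 65.8%.

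An event was counted as passing if its deposited FDR was below 0.05 and its inclusion difference was 0.1 or more in size. The inclusion level runs from 0 to 1 and is the length-scaled fraction of junction reads that come from the inclusion form. In the authors' deposited table, 3 of the 11 events passed, 1 in each gene, and 5.15% of all events in the table passed by the same rule. Of the 3, the DIAPH1 and CTTN exons were higher in the second set and the ENAH exon was higher in the first set, against 2.38% and 2.77% of all events in these directions. A p-value of 0, below the numeric precision of the table, was listed for 4 of the 11 events and for 0.121% of all events. The FDR limit alone was met by the same 4 events, and by 6.12% of the table. A p-value of 1 was listed for another 4 of the 11, and for 51.4% of all events. Because the genes were chosen on this same contrast, none of these shares is a result about them. The median absolute difference was 0.028 over the 11 events and 0.048 over all events. Most exons of the 3 genes thus had small listed differences, and 8 of the 11 lay between 0.004 and 0.09 in size.

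**Figure D2:**
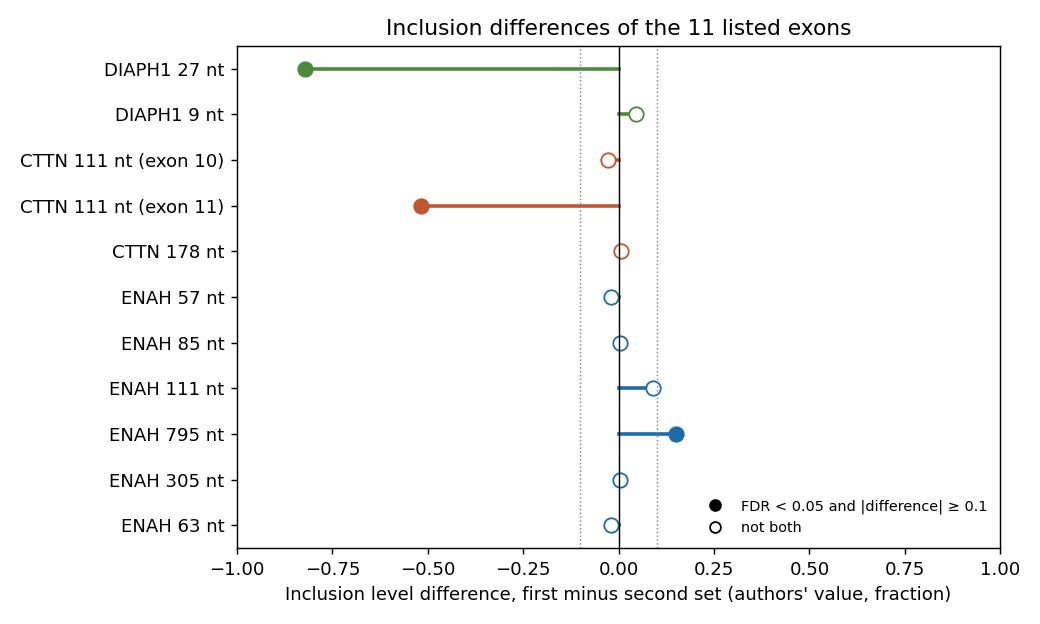
Inclusion level difference (first minus second set, a fraction, as the authors deposited it) of each of the 11 exons, in transcript order within each gene. Filled points passed both limits and dotted lines mark a difference of 0.1 in size. DIAPH1 27 nt (-0.822) and CTTN exon 11 (-0.517) lie far to the left, and ENAH 795 nt (0.15) is the filled point on the right.

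DIAPH1 (ENSG00000131504) lies on the minus strand of chromosome 5, and positions here and below are on hg19, 1-based. Its 27-nt exon spans 140967791 to 140967817. The exon follows an upstream intron of 30547 nt and precedes a downstream intron of 1026 nt. The flanking exons have 202 and 156 nt. The authors' deposited table gave this exon a difference of -0.822, and its p-value and FDR were listed as 0. Among the 1619 passing events of the table, 44 had a larger absolute difference, which is 2.72% of them. Of the 38 events with a p-value listed as 0, 2 were larger in size.

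The 27-nt exon is part of 5 transcripts of GENCODE 29, and 2 others join its flanks directly. It adds codons 40 to 48 of 1272 in DIAPH1-202, with whole codons at both ends. These 9 residues lie near the start of the protein. Exons this short are uncommon in the table: 326 unique exons, 1.19%, have at most 27 nt. Of the 363 events of such exons, 34 passed (9.37%). Introns longer than its upstream intron preceded 5.13% of all events, whose median upstream intron was 2246 nt.

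The other DIAPH1 exon is the shorter one, with 9 nt at 140950995 to 140951003 and the sequence cttccaaag. It sits between an upstream intron of 489 nt and a downstream intron of 36994 nt, and 2.6% of events have a longer downstream intron. Its difference in the authors' deposited table was 0.045, and both its p-value and its FDR were 1. The exon is part of 3 GENCODE 29 transcripts, as exon 18 of 28 in DIAPH1-202, and no GENCODE 29 transcript joins its flanks without it. In DIAPH1-203 the next exon instead begins 9 nt earlier, with 108 nt in place of 99 nt. Those 9 nt, ccctgctag, equal the 9-nt exon at 3 of 9 positions. The 9-nt exon had an effective length of 103 nt for the inclusion form, against 94 nt for skipping, and the 27-nt exon 121 nt. Within DIAPH1, the large listed difference was thus at exon 2.

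The exon 2 of DIAPH2 had a listed difference of similar size. This 33-nt exon (chromosome X, 95990757 to 95990789, plus strand) covers codons 45 to 55 of 1103 in DIAPH2-204. The authors' deposited table listed -0.851 for it (FDR 5.03e-09). DIAPH3 is the third gene of this formin group, and its 33-nt exon 2 (chromosome 13, 60707091 to 60707123, minus strand) covers codons 61 to 71 of 1193 in DIAPH3-205. The DIAPH3 exon was given 0.099 (FDR 0.762) by the authors' deposited table, so it did not pass. Exon 2 of DIAPH1 and of DIAPH2 was therefore listed as higher in the second set, while the DIAPH3 value met neither limit. The difference between the genes was not tested. DIAPH2 was named by the rule for the actin regulators, and DIAPH3 after its value was seen.

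CTTN (ENSG00000085733) lies on the plus strand of chromosome 11. Exon 11 spans 70267576 to 70267686, with introns of 959 nt before and 1359 nt after it and flanking exons of 111 and 56 nt. The authors' deposited table gave it a difference of -0.517, with a p-value and FDR listed as 0. Of the 1619 passing events, 231 were larger in size (14.3%). The exon covers codons 264 to 301 of 550 in CTTN-201, and 3 GENCODE 29 transcripts, CTTN-202, CTTN-203 and CTTN-212, lack it. Forms with and without it therefore differ by 1 filament-binding repeat. Of the 294 events of 111-nt exons in the table, 10 passed (3.4%).

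Exon 10 of CTTN spans 70266506 to 70266616 and is listed as a cassette joined directly to the 56-nt exon that follows exon 11. It is also the upstream flank of the exon 11 event, so both events describe neighbouring repeats. For this exon the authors' deposited table gave -0.028 at a p-value of 0.437 (FDR 1). Neighbouring repeats of the same length thus had listed differences of -0.517 and -0.028. The junction of exon 10 and the 56-nt exon counts as inclusion of exon 10 and as skipping of exon 11. These values are therefore not separate measurements. The skipping form of the exon 10 event, which lacks both repeats, is in no GENCODE 29 transcript.

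The last CTTN exon listed has 178 nt, at 70279207 to 70279384. It covers codons 386 to 445 of 634 in CTTN-203, beyond the repeats. The authors' deposited table gave it 0.006 with a p-value of 1. Its length leaves a remainder of 1 after division by 3, so skipping it shifts the reading frame, and no GENCODE 29 transcript skips it.

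ENAH (ENSG00000154380) lies on the minus strand of chromosome 1 and had the smaller differences. Its passing exon and the one closest to passing overlap. The 795-nt exon spans 225704898 to 225705692 and the 111-nt exon 225704898 to 225705008, and both end at the same 5′ splice site. The 795-nt exon begins 684 nt earlier and ends with the whole 111-nt exon. Both events have the same flanking exons, of 368 and 305 nt, and so share the skipping junction and the junction downstream. The authors' deposited table gave 0.15 for the 795-nt and 0.09 for the 111-nt exon, and listed a p-value and FDR of 0 for both. The 111-nt exon thus met the FDR limit and missed the minimum difference of 0.1. Because reads over the shared junctions enter both, these 2 values are not independent.

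The 111-nt exon and the start of the longer form are shown to locate the 3′ splice sites they use.
ENAH 111-nt exon: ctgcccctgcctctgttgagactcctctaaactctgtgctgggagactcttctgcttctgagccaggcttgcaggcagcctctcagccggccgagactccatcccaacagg
ENAH 795-nt exon, first 60 nt: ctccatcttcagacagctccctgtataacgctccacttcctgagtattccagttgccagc
The 111-nt exon covers codons 268 to 305 of 591 in ENAH-204 and the 795-nt exon codons 272 to 537 of 802 in ENAH-209, so the longer exon adds 265 residues where the shorter adds 37. Exons of at least 795 nt are as uncommon as those of at most 27 nt, with 295 unique exons or 1.07%. The form that skips either exon is in no GENCODE 29 transcript.

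The 63-nt exon of ENAH, at 225692693 to 225692755, has the length of exon 11a, an insert of 21 residues known from epithelial cells. It covers codons 513 to 534 of 591 in ENAH-204, near the end of the protein, and is shown as the best-known regulated exon of the gene.
ENAH 63-nt exon: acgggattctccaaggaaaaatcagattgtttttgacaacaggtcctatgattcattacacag
The authors' deposited table gave it -0.02 at a p-value of 0.0636 (FDR 0.497). It did not pass, and the value lies on the second-set side, opposite to the 795-nt exon. GENCODE 29 has 2 transcripts with the exon and 3 that join its flanks. Its introns have 2897 and 3920 nt.

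The 57-nt exon of ENAH, at 225723209 to 225723265, is a further listed insert. It covers codons 117 to 136 of 213 in ENAH-201, the only transcript it matched.
ENAH 57-nt exon: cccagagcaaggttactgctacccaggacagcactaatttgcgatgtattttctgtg
It adds 19 residues after an upstream intron of 19342 nt, and 1 GENCODE 29 transcript includes it while 4 do not. Its entry in the authors' deposited table was -0.021 at a p-value of 0.0169 (FDR 0.187). The unadjusted p-value was thus under 0.05 and the FDR was not.

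The remaining ENAH exons, of 85 nt (225718256 to 225718340) and 305 nt (225702298 to 225702602), each had a difference of 0.004 and a p-value of 1 in the authors' deposited table. GENCODE 29 has 4 transcripts with the 85-nt exon and 3 with the 305-nt exon, and none skips either. The exon after the 85-nt exon is listed in forms of 522 and 368 nt that differ by 154 nt at their downstream end. Neither 85 nor 305 is divisible by 3.

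**Figure D3:**
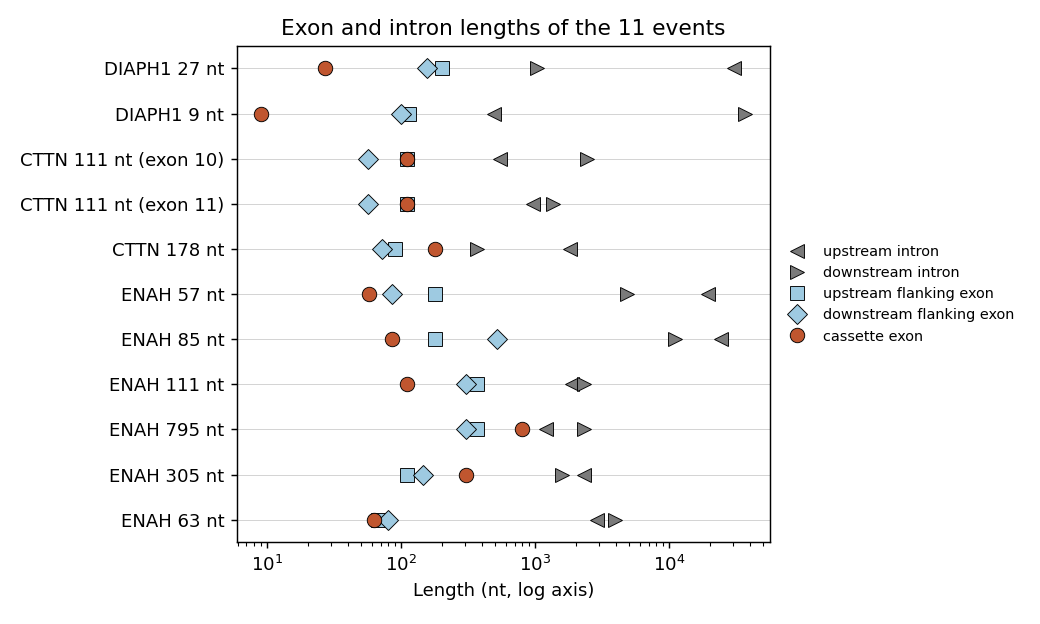
Lengths (nt, log axis) of each cassette exon, its flanking exons and its introns, in transcription order. The DIAPH1 exons are the shortest and have 1 long intron each (30547 and 36994 nt), the longest CTTN intron has 2429 nt, and ENAH 795 nt is longer than both its flanks.

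The largest listed differences belonged to exons that keep the reading frame. Of the 11 exons, 8 have a length divisible by 3, and the 3 passing exons are among them. Over these 8 exons the absolute difference had a median of 0.0675 and ran from 0.02 to 0.822. The 3 exons that would shift the frame had 0.004, 0.004 and 0.006, each with a p-value of 1. Over the whole table the median absolute difference was 0.048 for both kinds of exon, and 5.86% of in-frame and 4.68% of other events passed. With 3 frame-shifting exons in 2 genes this is a description of these exons only.

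All 11 exons matched GENCODE 29 by gene identifier, exon length and intron lengths. The sequences of the exons were searched for GCATG, its longer form TGCATG and GCACG on the transcribed strand. GCATG was found once in CTTN exon 10, as TGCATG, and once in the 178-nt CTTN exon, and in none of the other 9 exons. GCACG was found in CTTN exon 11 alone of the 11. Among table exons within 10% of 111 nt, 9.5% hold GCATG, 2.69% TGCATG, which is counted in both, and 5.02% GCACG. Around 178 nt the share with GCATG is 14.9%, and around 795 nt 48.9%. The 3 passing exons hold no GCATG themselves, which says only that these letters are not within the exon. Introns were not searched, since a genome sequence on hg19 was not used here.

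The 3 genes were set beside 119 other regulators of actin, listed by role with earlier results of these data known. Of these, 77 had events, 277 in all. In the authors' deposited table, 14 of these events in 12 genes passed, 5.05% of the events against 5.15% of all events. By gene this is 15.6%, against 13.7% of all genes with events. The median absolute difference was 0.037, against 0.048 over all events. Passing events numbered 6 with the first set higher and 8 with the second set higher.

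By role, passing events were listed for formins, filament crosslinkers, partners of Ena/VASP proteins, promoters of Arp2/3 activity and factors of filament disassembly. Crosslinkers had 3 of 24, each higher in the second set, among them an exon of FLNA, a filamin that ties filaments into networks. The authors' deposited table gave the 24-nt FLNA exon -0.25 (FDR 2.3e-11). Other formins than DIAPH1 had 2 of 27, the DIAPH2 exon and a 65-nt exon of FHOD3, at -0.627 (FDR 9.5e-06) in the authors' deposited table. Partners of Ena/VASP proteins had 4 of 10, in RAPH1 and LPP.

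RAPH1, or lamellipodin, recruits Ena/VASP proteins to the membrane, and its passing events of a pair of neighbouring exons, which share a junction, had opposite signs. The authors' deposited table listed 0.387 (FDR 3.9e-05) for the 81-nt exon joined to the next 78-nt exon past the 75-nt one, and -0.57 (FDR 7.15e-06) for the 75-nt exon between the 81-nt and 78-nt exons. The junction of the 81-nt and 78-nt exons counts as inclusion in the one and as skipping in the other, so these values are not separate measurements. Their other events did not pass in the authors' deposited table, at 0.326 (FDR 1.0) for the 81-nt exon joined to the 75-nt exon and -0.026 (FDR 0.0114) for the 75-nt exon without the 81-nt one. LPP, a focal adhesion protein, had passing entries of either sign, which the authors' deposited table gave as 0.267 (FDR 0.0259) for a 57-nt exon and -0.323 (FDR 0.00153) for one of 123 nt. The 123-nt exon is the upstream flank of that 57-nt event, and both events use the same downstream splice site. The junction from the 123-nt exon to that site counts as inclusion of the 123-nt exon and as skipping of the 57-nt exon. These values are therefore not separate measurements. That 57-nt exon joined to another upstream exon was listed at -0.247 (FDR 0.317), which did not pass, in the authors' deposited table. FAM21C, a subunit of the WASH complex, had a passing 87-nt exon at 0.254 in the authors' deposited table. CAP1, a recycler of actin monomers, had 1 passing event of its 65-nt exon at 0.388 in the authors' deposited table, and those with other flanks, from 0.009 to 0.472, did not pass. ABI1, a subunit of the WAVE complex, had a 174-nt exon that passed at 0.122 in the authors' deposited table with an 87-nt exon downstream. With a 186-nt exon downstream, the 174-nt exon was at -0.23 (FDR 0.68) in the authors' deposited table. Both events count the junction upstream of this exon, so these values are not independent. Its 177-nt form did not pass with either downstream exon in the authors' deposited table, at 0.106 (FDR 0.222) and -0.225 (FDR 0.394).

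The Arp2/3 complex itself had 0 passing events of 24, and capping proteins had 0 of 33. EVL, the other Ena/VASP gene with events, had 0 passing of 3. The role listed as cortactin family and partners had 0 of 11 without CTTN, and these events were all in DBN1 and DBNL. In the authors' deposited table, 1 event of EVL and 1 of the cortactin role met the FDR limit alone. The Arp2/3 complex and the capping proteins had 0 such events. The EVL event was at -0.081 (FDR 0.0272), and that of the cortactin role was at 0.059 (FDR 0.0137), in DBNL. Of all events, 5.15% passed, and no role was tested against another or against the rest.

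**Figure D4:**
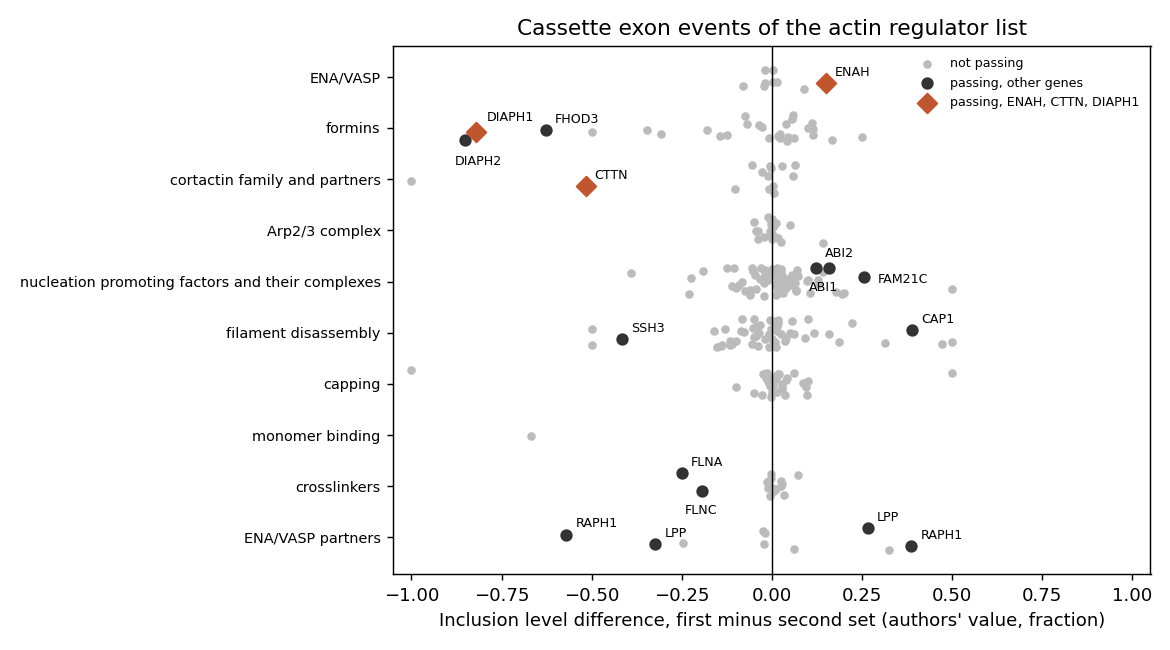
Inclusion level difference (first minus second set, a fraction, as the authors deposited it) of 265 events of the actin regulators by role, with vertical jitter for display; some listed events are not shown. Grey points did not pass, dark points passed in other genes and diamonds are the passing exons of ENAH, CTTN and DIAPH1. Most points lie near 0, and DIAPH1 and DIAPH2 are the passing formin exons farthest to the left.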

How the data were processed

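RNA-seq of 4 HEK293T clones, 2 WT and 2 RBFOX2 KO by their titles, was summarised by the authors in 1 table of skipped exons from rMATS, per the file headers. STAR 2.7.3a and hg19 are named in the submitters' processing notes. The rMATS version and annotation are not given in the sources used here. The deposited score per event is an inclusion difference, read as first minus second set by the rMATS convention. The deposited p-value and FDR are the authors'; the FDR equalled a Benjamini-Hochberg adjustment over the table (largest gap 1.11e-16). The 6 columns with values per library match no label and were not used, so no count model, depth or spread is given.

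Events passed at FDR under 0.05 and an absolute difference of at least 0.1. Exons were matched to GENCODE 29 by gene identifier, exon length and intron lengths, with a sequence for 24785 unique exons (90.2%). Codon positions refer to the longest matched protein-coding transcript. The members, lists and alternatives (FDR limits of 0.01 and 0.1, Bonferroni, minimum differences of 0 and 0.2) were chosen with earlier results of these data known. All exons of the 3 genes are named, and up to 5 other actin genes a direction by lowest p-value. A gene it picked and a role of the list are left out of the text. The call rule and match were run on made-up data with answers fixed in advance, which checks the code only and not the calls in these data. Python 3.11.15, pandas 2.3.3, numpy 2.4.6 and matplotlib 3.10.9 were used.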

Additional observations from a re-analysis of the deposited data

How the results depend on the processing

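The Bonferroni correction over the table left 472 of all events, fewer by construction than the 1619 of the main rule. For the actin regulators with ENAH, CTTN and DIAPH1 included, it left 8 events in 7 genes, against 17 and 15. The 3 member events are among these 8. The 3 member events were also 3 at FDR limits of 0.01 and 0.1 and under Bonferroni. Without a minimum difference they were 4, with the 111-nt ENAH exon added (0.09), and at a minimum of 0.2 they were 2, without the 795-nt ENAH exon (0.15). The DIAPH1 and CTTN exons passed under each of these settings. No paired analysis was possible because no library column could be matched to a clone. Leaving out a clone, refitting junction reads and the intron motif windows were not run, because the library columns match no label and were not used and no hg19 sequence was used here, so how far 1 clone decides a difference is not shown.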
